A study of Homo sapiens with 4 samples.

Results

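LOX, EFEMP1, PRSS23, FSTL1, TGM2 and EXT1, genes whose products build, crosslink or modify the extracellular matrix, were followed in FLASH-seq libraries of human RPE1 cells. They are 6 of the 9667 genes with a row in the deposited tables. They were taken by gene symbol, and were picked because of their share of the signal in these same libraries, so their levels and the differences between groups are given as a description with no test. FLASH-seq crosslinks RNA to protein with UV light, captures a biotin-tagged protein on streptavidin beads and sequences the RNA that stays with it. The study asked whether CFAP20, a protein best known from the axoneme of cilia, binds RNA. The tagged-CFAP20 group held 2 libraries from CFAP20 knockout cells that express FLASH-BIO-CFAP20, and the CFAP20-KO group held 2 libraries from the knockout cells alone, which serve as the negative control. RPE1 is a line of immortalised pigment epithelium from the retina. All 4 libraries came from a line that carries iCas9 and a double knockout of p53 and puro, and both groups carry the CFAP20 knockout. The labels do not say whether a group is 1 clone or whether replicates are separate cultures, and spread between replicates may be technical.

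Each deposited value is a signal per 200-bp bin, and every value of a library is a whole multiple of 1 step, which was taken as 1 read touching 1 bin and is called a read overlap here. Reads touched 1.37 bins on average. The tagged-CFAP20 libraries held 165189 and 134891 read overlaps on genes, and the CFAP20-KO libraries 9146 and 3908. The share of a library's gene signal that 3 reads make up was therefore 0.00182% and 0.00222% in tagged-CFAP20 but 0.0328% and 0.0768% in CFAP20-KO, which limits what can be seen in the negative control. CFAP20 itself, read through the window of its neighbour MMP15 (chromosome 16, 58113592 to 58129381, minus strand), had 36 and 38 read overlaps on its 7 coding bins in tagged-CFAP20 and 0 in both CFAP20-KO libraries. Its 54 other bins held 7 and 1 against 0 and 0. Whether these reads come from the gene or from the FLASH-BIO-CFAP20 construct was not tested. Of the pigment epithelium markers, OTX2 had 26 and 34 read overlaps in tagged-CFAP20 and 0 in both CFAP20-KO libraries, and MITF had 31 and 21 against 5 and 0. RPE65, which marks mature pigment epithelium, had 4 and 2 against 0 and 0, and RLBP1 had 1 and 0 against 0 and 0. BEST1 and the epithelial genes KRT8 and KRT18 had no row in the deposited data. The mesenchymal genes COL1A1 (329 and 176 against 24 and 10) and PDGFRB (190 and 139 against 18 and 9) were covered in all 4 libraries, SNAP25, a neuronal marker, had 11 and 15 against 0 and 0, and ALB of liver and COL1A2 were at 0 in every library. Fewer cells carrying an RNA and less of that RNA per cell or per captured protein cannot be told apart in such bulk samples.

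The extracellular matrix is made of secreted proteins and of sugar chains that are assembled in the secretory pathway. Lysyl oxidase (LOX) oxidises lysine side chains of collagen and elastin so that the fibres crosslink, and transglutaminase 2 (TGM2) joins glutamine to lysine residues between proteins. Fibulin-3 (EFEMP1) is a glycoprotein of basement membranes and elastic tissue that is inherited in mutant form in a macular dystrophy of the retina, where the pigment epithelium makes it. FSTL1 is a secreted glycoprotein of the SPARC and follistatin family, PRSS23 a secreted serine protease, and EXT1 a Golgi enzyme that polymerises heparan sulfate together with EXT2. LOX, EFEMP1, FSTL1, TGM2 and EXT1 are transcribed from the minus strand and PRSS23 from the plus strand.

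For 5 of the genes, 30 bases from the middle of the coding bin with the most reads are shown to place the strongest coding signal in the RNA. They are written 5′ to 3′ on the gene's strand from the hg38 genome, with coding bases in capitals, and the FSTL1 stretch runs over the end of its seventh exon (exon 7) into the intron in lower case.
LOX, chr5:122075471-122075500, minus strand: TGCTGCTCAGATTTCCCCAAAGAGTGAAAA
TGM2, chr20:38142158-38142187, minus strand: TGGGCATCCCTACCCGCGTCGTGACCAACT
EFEMP1, chr2:55917925-55917954, minus strand: GATTATTGTCAATAATGAACAGCCTCAGCA
FSTL1, chr3:120404839-120404868, minus strand: ACAACAAGTTGCTTAGgtgagaggaaccga
PRSS23, chr11:86808625-86808654, plus strand: CAGCAGCAGAAGTGGGAGCGAAAAATTATT

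The 6 genes together took 0.912% and 0.995% of the gene signal in the tagged-CFAP20 libraries and 1.95% and 1.79% in the CFAP20-KO libraries. The share of the sum in tagged-CFAP20 was thus 0.510 times that in CFAP20-KO. Each of the 6 genes had a lower share in both tagged-CFAP20 libraries than in either CFAP20-KO library. Over the 1119 genes with reads in all 4 libraries, 40.4% showed the same order, and over the 4461 genes with reads in at least 2 libraries 10.2% did; since the genes were picked on this contrast, nothing is read from their count. The gap was wide for LOX, PRSS23 and EFEMP1, with ratios of tagged-CFAP20 to CFAP20-KO of 0.227, 0.285 and 0.330, and narrow for TGM2 (0.868), with FSTL1 (0.528) and EXT1 (0.654) between. The ratio of FSTL1 was 0.843 without CFAP20-KO replicate 1, and that of PRSS23 was 0.491 over the whole downstream side of the deposited windows. Closest to the edge of this order was TGM2, whose higher tagged-CFAP20 share (0.309%) lay just under its lower CFAP20-KO share (0.317%). That gap was smaller than the share of 1 read overlap in CFAP20-KO replicate 1 (0.0109%). For FSTL1 the gap from 0.165% to 0.179% was likewise smaller than 1 read overlap in CFAP20-KO replicate 2 (0.0256%). With CFAP20-KO this shallow, the order of TGM2 and FSTL1 thus rests on less than 1 read overlap.

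**Figure D1:**
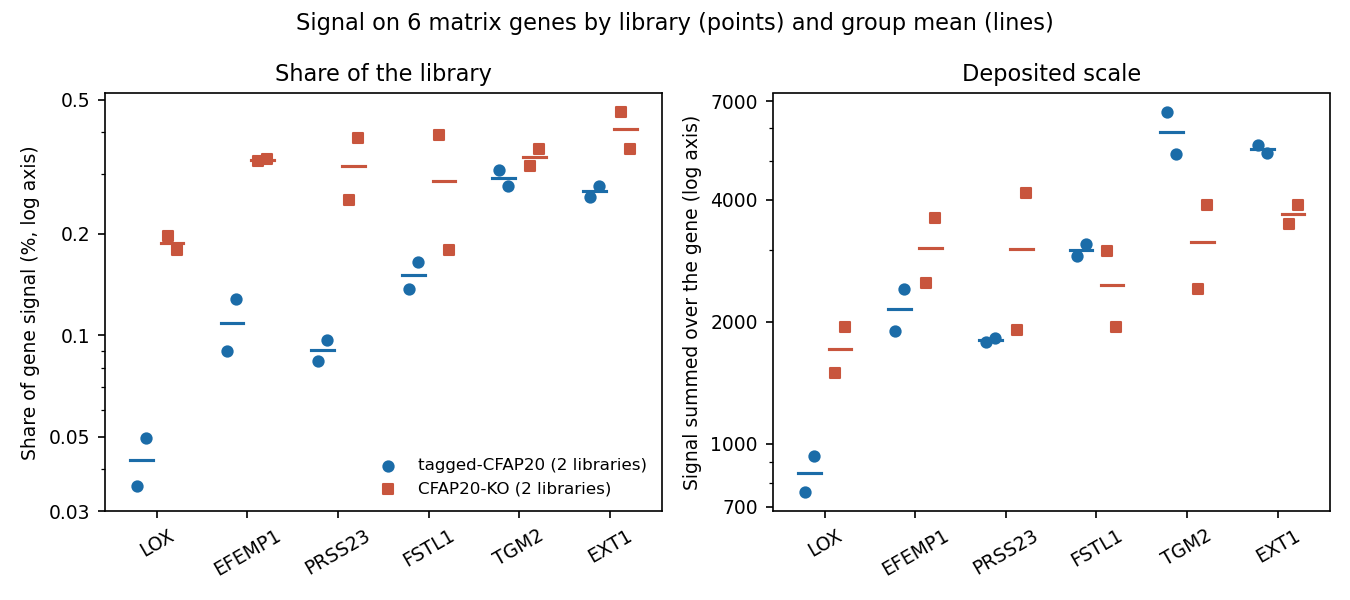
Share of the library's gene signal (left, %, log axis) and summed signal on the deposited scale (right, log axis) for each of the 6 genes. Points are libraries, circles tagged-CFAP20 and squares CFAP20-KO (2 each), and lines are group means; all shares lie lower in tagged-CFAP20, while on the deposited scale TGM2 and EXT1 lie higher and LOX, EFEMP1 and PRSS23 lower.

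LOX lies on chromosome 5 from 122063195 to 122078285 (hg38) and has 7 exons in its canonical transcript. It had 59 and 67 read overlaps in tagged-CFAP20, and 18 and 7 in CFAP20-KO. Its share of the gene signal was 0.0357% and 0.0497% in tagged-CFAP20, against 0.197% and 0.179% in CFAP20-KO where it ranked 43 and 65 among all genes. The groups did not overlap. LOX was picked on this share, so its 95% exact intervals describe counting error only and are no test. They ran from 0.0257% to 0.0479% in tagged-CFAP20 replicate 1 and from 0.103% to 0.332% in CFAP20-KO replicate 1. In the shallow CFAP20-KO replicate 2 the interval ran from 0.0568% to 0.408% and overlapped that of tagged-CFAP20 replicate 2, whose upper bound was 0.0656%.

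LOX had reads on its last exon, almost all 3′ UTR, and on its coding exons in all 4 libraries. Its 3′ UTR bins held 30 and 20 read overlaps in tagged-CFAP20 and 12 and 3 in CFAP20-KO, and the bins that are mostly coding 10 and 11 against 3 and 3. Exons took 72.4% and 47.8% of the exon and intron reads in tagged-CFAP20, and 83.3% and 85.7% in CFAP20-KO. The bin with the most reads in tagged-CFAP20 lay 13.6 kb from the gene start in the 3′ UTR (5 and 2 read overlaps, against 1 and 0 in CFAP20-KO). The coding bin of the LOX sequence shown above, on exon 3, held 3 and 2 against 1 and 1. That coding bin also touches the last exon of SRFBP1 on the opposite strand, so its reads cannot be assigned to LOX alone.

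As a share of its own bins, LOX had the widest overlap with another gene among the 6 genes. SRFBP1, a gene for a protein that binds serum response factor, runs on the opposite strand over 62 of the 76 LOX bins, and the signal is not split by strand. The 62 shared bins held 48 and 45 of the read overlaps in tagged-CFAP20 and 16 and 7 in CFAP20-KO. The 2 bins on SRFBP1 exons, which include the coding bin of the LOX sequence shown, held 4 and 4 against 1 and 1. The part of SRFBP1 that has its own row in the tables, which ends at 122028660 and does not reach LOX, had 38 and 36 read overlaps in 334 bins in tagged-CFAP20 and 4 and 0 in CFAP20-KO. That is 0.222 read overlaps per bin over both tagged-CFAP20 libraries, against 0.829 per bin on LOX introns and 2.81 per bin on LOX exons inside SRFBP1. The 14 LOX bins clear of SRFBP1 held 11 and 22 read overlaps in tagged-CFAP20 and 2 and 0 in CFAP20-KO; their share, 0.00666% and 0.0163% against 0.0219% and 0, overlapped between the groups. So few reads, under the 3 reads named above in both CFAP20-KO libraries, cannot show whether LOX has a lower share outside SRFBP1. How far SRFBP1 adds to the LOX signal was not tested.

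TGM2 lies on chromosome 20 from 38127387 to 38165372 and has 13 exons. It carried the most reads of the 6 genes in replicate 1 of tagged-CFAP20, with a summed signal of 6568 and 5197 in the tagged-CFAP20 libraries and 2407 and 3876, or 29 and 14 read overlaps, in CFAP20-KO. Its share was 0.309% and 0.277% in tagged-CFAP20 against 0.317% and 0.358% in CFAP20-KO, ranks 12 and 15 against 12 and 9. TGM2 was thus near the top of every library, and its groups were separated by less than the spread within either of them. The exact intervals of its CFAP20-KO shares ran from 0.194% to 0.479% and from 0.168% to 0.642%. Each covers both tagged-CFAP20 shares of TGM2.

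Coding exons in the 3′ part of the TGM2 gene stood out from the introns around them in tagged-CFAP20. Counted over every bin that an exon touches, as for all numbered exons here, exon 10 held 39 and 22 read overlaps, exon 7 held 37 and 16, and exon 9 held 20 and 16. The same exons held 1 and 0, 0 and 2, and 1 and 0 in CFAP20-KO. The 2 strongest bins, 27.2 kb and 23.2 kb from the gene start, had 20 and 17 and 27 and 9 read overlaps in tagged-CFAP20, and 0 and 0 and 0 and 1 in CFAP20-KO; their totals over the 4 libraries are equal, and the TGM2 sequence above is from the bin at 23.2 kb. Coding bins held 130 and 74 read overlaps in tagged-CFAP20 against 4 and 4 in CFAP20-KO, and 3′ UTR bins held 39 and 49 against 10 and 3. As a share of TGM2 reads the coding bins made up 25.4% and 19.8% in tagged-CFAP20 and 13.8% and 28.6% in CFAP20-KO, so the groups overlapped. The 3′ UTR made up 7.63% and 13.1% in tagged-CFAP20 and 34.5% and 21.4% in CFAP20-KO. Exon bins of TGM2 are rich in G and C (55.6%, against 52.1% for its introns), and the exon reads were a little richer still, at 59.1% in tagged-CFAP20 and 58.9% in CFAP20-KO. RPRD1B, on the other strand, touches 2 TGM2 bins, which held 1 and 1 read overlaps in tagged-CFAP20 and none in CFAP20-KO.

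EFEMP1 lies on chromosome 2 from 55865967 to 55924139 and has 12 exons; no other annotated gene overlaps it. It had 148 and 173 read overlaps in tagged-CFAP20, and 30 and 13 in CFAP20-KO. Its share was 0.0896% and 0.128% in tagged-CFAP20 against 0.328% and 0.3327% in CFAP20-KO, ranks 190 and 100 against 11 and 14. The CFAP20-KO shares lie close together, and both are far above the tagged-CFAP20 pair.

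Most EFEMP1 reads were intronic. Exons took 14.9% and 24.9% in tagged-CFAP20 against 31.0% and 15.4% in CFAP20-KO, so the groups overlapped. Exon 5, which holds the EFEMP1 sequence shown, was the strongest exon in tagged-CFAP20, with 11 and 23 read overlaps against 4 and 0 in CFAP20-KO. In CFAP20-KO the strongest exon was exon 6, with 5 and 2 read overlaps, where tagged-CFAP20 had 6 and 5. Of 4 equal parts of the gene, the first took 44.6% and 42.8% of the EFEMP1 reads in tagged-CFAP20 and 30.0% and 15.4% in CFAP20-KO, and the next part, which holds only intron, took 9.46% and 4.62% against 16.7% and 30.8%. Reads of the negative control lay less at the 5′ end, on few reads. In CFAP20-KO, 69.8% of the 43 EFEMP1 read overlaps fell in bins that also had reads in tagged-CFAP20, which had reads in 50.9% of the EFEMP1 bins.

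FSTL1 lies on chromosome 3 from 120392293 to 120451253 and has 11 exons. It had 226 and 223 read overlaps in tagged-CFAP20, and 36 and 7 in CFAP20-KO. Its share was 0.137% and 0.165% in tagged-CFAP20 against 0.394% and 0.179% in CFAP20-KO. CFAP20-KO replicate 1 alone stood apart; replicate 2, at 7 read overlaps, lay just above tagged-CFAP20, with a 95% exact interval from 0.0568% to 0.408% that covers all tagged-CFAP20 values.

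The FSTL1 primary transcript carries the hairpin of miR-198 in its 3′ UTR, and in human skin the transcript is known to be used either as mRNA or as microRNA precursor. The mature sequence is shown because the bin that holds its hairpin was one of the strongest of the gene in both groups (RefSeq, GRCh38.p14, chr3:120395703-120395724, minus strand; the seed, bases 2 to 8, in capitals).
hsa-miR-198: gGUCCAGAggggagauagguuc
That bin, 55.6 kb from the gene start, held 6 and 6 read overlaps in tagged-CFAP20 and 3 and 1 in CFAP20-KO. At 200 bp the bins do not separate the hairpin from the UTR around it. A bin near the start of the last exon, at 54.4 kb, held 7 and 8 against 0 and 0, and the bin of the FSTL1 sequence above, on exon 7, held 7 and 8 against 1 and 0.

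Within FSTL1 the groups lay apart on the last exon. Its 3′ UTR took 20.0% and 29.5% of the gene's reads in tagged-CFAP20, and 61.1% and 42.9% in CFAP20-KO. Introns took 68.0% and 60.5% in tagged-CFAP20 against 25.0% and 57.1% in CFAP20-KO. Per bin, exons held 4.45 and 6.19 times the read overlaps of introns in tagged-CFAP20, and 28.4 and 7.10 times in CFAP20-KO, so that replicate 1 alone stood far apart. The pseudogene BTNL12P lies over 158 of the 295 FSTL1 bins on the other strand, and its exons touch 9 of them with 2 and 4 read overlaps in tagged-CFAP20 and 0 and 1 in CFAP20-KO; a noncoding gene, ENSG00000286735, covers 12 bins at the 5′ end with 13 and 23 against 0 and 0.

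PRSS23 lies on chromosome 11 from 86800240 to 86811233, and its canonical transcript has a short noncoding exon 1 and an exon 2 that carries the whole reading frame and the 3′ UTR; no other annotated gene overlaps it. It had 139 and 131 read overlaps in tagged-CFAP20, and 23 and 15 in CFAP20-KO. Its share was 0.0841% and 0.0971% in tagged-CFAP20 against 0.251% and 0.384% in CFAP20-KO, ranks 214 and 165 against 23 and 7. The tagged-CFAP20 pair was tight, the CFAP20-KO pair was not, and the groups did not overlap.

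PRSS23 reads piled up on the reading frame. Coding bins held 72 and 72 read overlaps in tagged-CFAP20 and 18 and 4 in CFAP20-KO, and 3′ UTR bins 28 and 28 against 3 and 6. The highest bin, 8.4 kb from the gene start, held 14 and 21 against 3 and 1, and it contains the PRSS23 sequence shown. Exons took 71.9% and 78.6% of the PRSS23 reads in tagged-CFAP20 and 91.3% and 73.3% in CFAP20-KO. Of the 1616 genes with at least 50 tagged-CFAP20 read overlaps, 98.1% had a lower exon share in tagged-CFAP20 than PRSS23. Exons also make up 35.8% of its exon and intron bins, the highest value of the 6 genes. Per bin, its exons held 5.42 times the read overlaps of its introns over both tagged-CFAP20 libraries. Among the 6 genes this ratio ran from 2.90 for LOX to 5.86 for EFEMP1. Bin by bin the profile was alike in both tagged-CFAP20 libraries (Pearson's r = 0.802 over 55 bins of 1 gene, which share gene and annotation), and all 38 CFAP20-KO read overlaps fell in bins that had reads in tagged-CFAP20.

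EXT1 lies on chromosome 8 from 117794490 to 118111853, and its 317364 bp exceed the tables' reach, so that only the first 100 kb, exon 1 and part of intron 1, were read. It had 424 and 375 read overlaps in tagged-CFAP20, and 42 and 14 in CFAP20-KO. Its share was 0.257% and 0.278% in tagged-CFAP20 against 0.459% and 0.358% in CFAP20-KO, ranks 17 and 14 against 3 and 9. Introns took 95.0% and 92.8% of these reads in tagged-CFAP20 and 97.6% and all 14 read overlaps in CFAP20-KO. The exact interval of the EXT1 share in CFAP20-KO replicate 2, from 0.168% to 0.642%, covers both tagged-CFAP20 shares. In CFAP20-KO replicate 1 it ran from 0.315% to 0.657% and lay above both.

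Reads on EXT1 were densest at its 5′ end in tagged-CFAP20. Of 4 equal parts of the 100 kb, the first took 36.3% and 33.3% of the reads there and the last 18.2% and 21.1%. In CFAP20-KO the 4 parts took 23.8%, 11.9%, 47.6% and 16.7% in replicate 1 and 28.6%, 57.1%, 7.14% and 7.14% in replicate 2, so the first was highest in neither. The 2 strongest bins, 2.2 kb and 1.6 kb from the gene start, held 11 and 4 and 7 and 7 read overlaps in tagged-CFAP20, and 1 and 0 each in CFAP20-KO. Exon 1 held 29 and 32 read overlaps in tagged-CFAP20 against 1 and 0 in CFAP20-KO, and its exon share lay the other way from LOX, FSTL1 and TGM2: 4.95% and 7.20% against 2.38% and 0%.

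**Figure D2:**
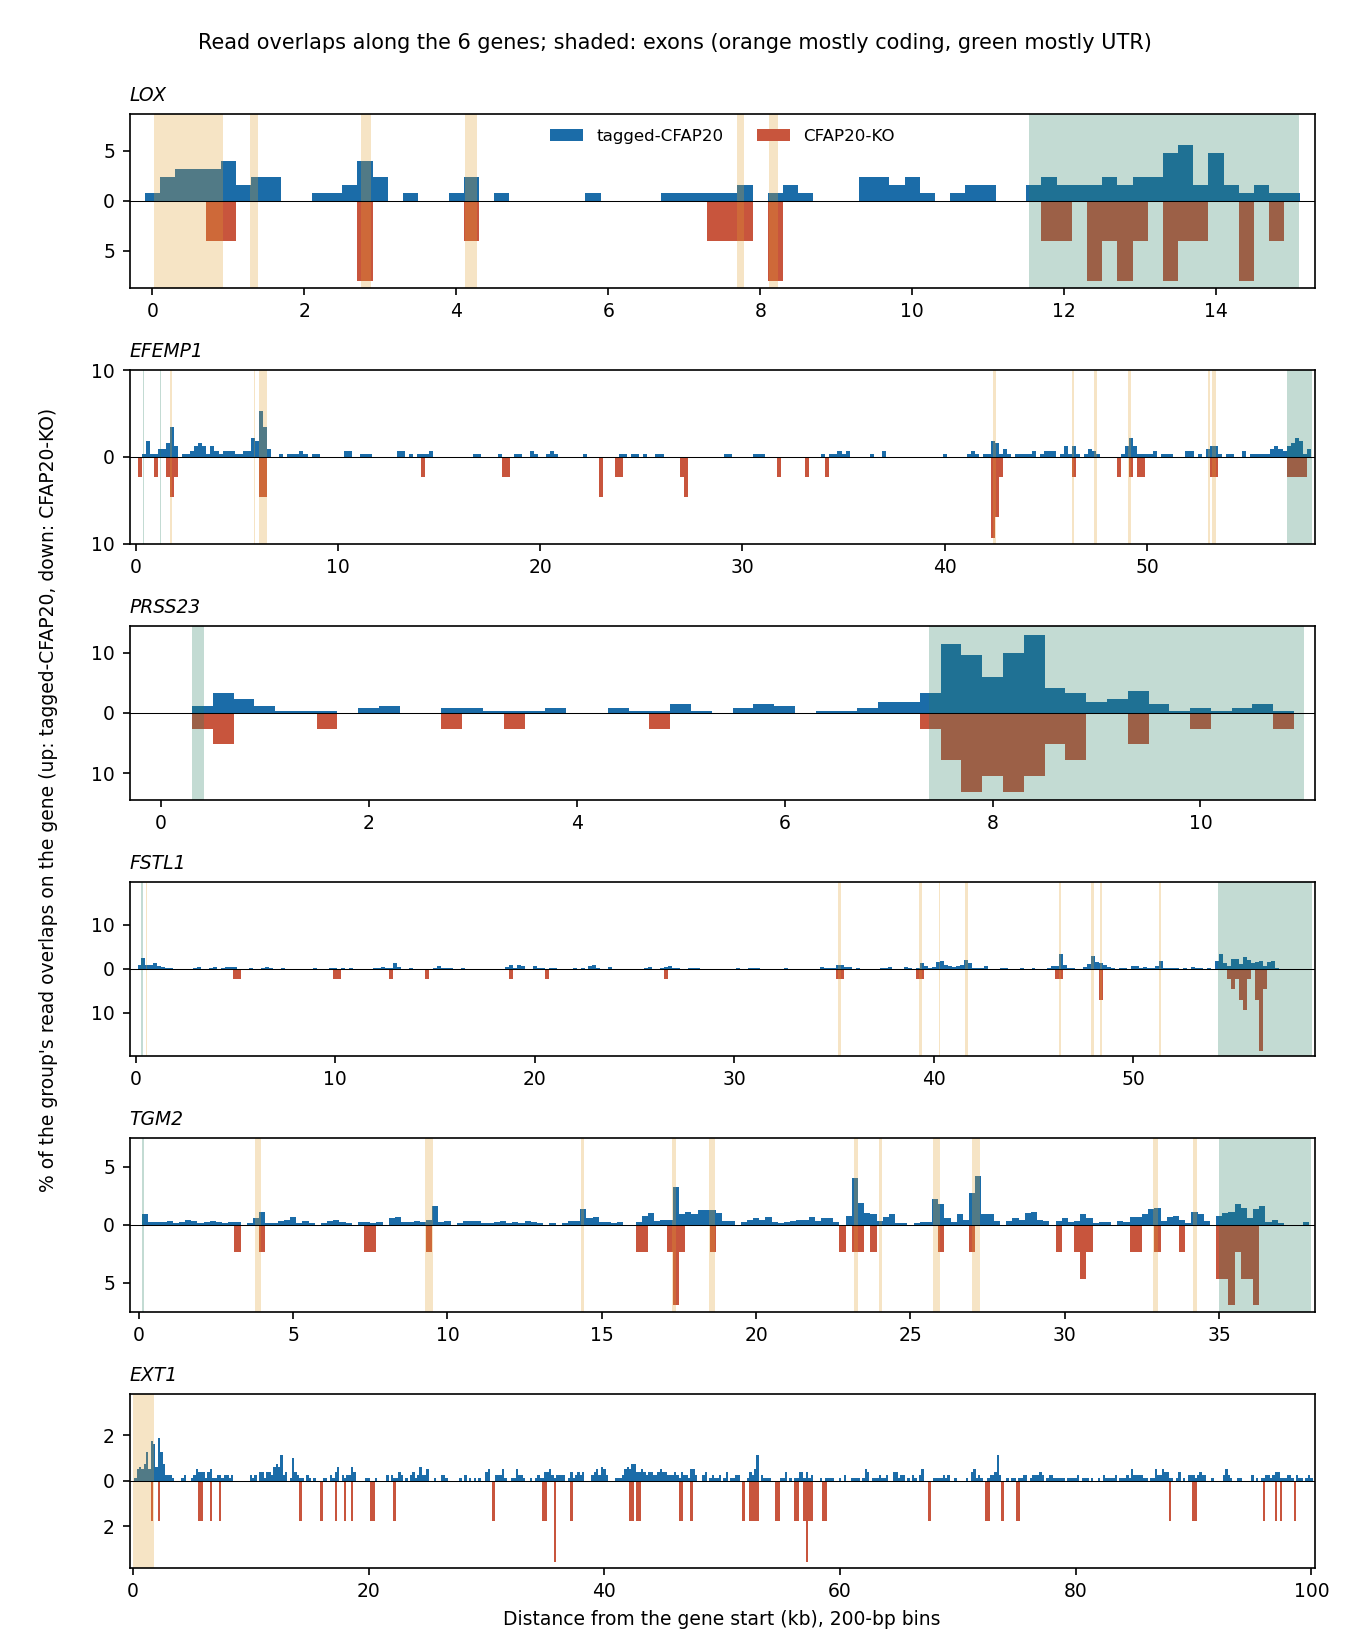
Read overlaps in 200-bp bins by distance from the gene start (kb), as a percentage of the group's read overlaps on that gene, with tagged-CFAP20 above the line and CFAP20-KO below it (2 libraries pooled in each). Exons are shaded, orange where mostly coding and green where mostly UTR. On TGM2 and FSTL1 a larger part of the CFAP20-KO reads than of the tagged-CFAP20 reads lies on the last exon.

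Set against each other per length of gene, PRSS23 and TGM2 were the densest in tagged-CFAP20, with shares of 0.0824 ± 0.0083% and 0.0771 ± 0.0061% of the gene signal per 10 kb (SD, n = 2), and their values overlapped. LOX (0.0283 ± 0.0065%), EXT1 (0.0267 ± 0.0015%), FSTL1 (0.0256 ± 0.0034%) and EFEMP1 (0.0187 ± 0.0047%) followed, each overlapping the next except FSTL1 and EFEMP1. In CFAP20-KO the order was PRSS23 (0.289 ± 0.0851%), LOX (0.125 ± 0.0083%), TGM2 (0.0889 ± 0.0077%), EFEMP1 (0.0568 ± 0.00056%), FSTL1 (0.0486 ± 0.0257%) and EXT1 (0.0409 ± 0.0071%), where EFEMP1, FSTL1 and EXT1 lay within the spread of FSTL1. LOX stood at about the level of EXT1 in tagged-CFAP20, and above all but PRSS23 in CFAP20-KO.

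The position of the reads, which was also named in the choice of the genes, is given as a description. Added up over the 6 genes, exons took 28.3% and 31.0% of the exon and intron reads in tagged-CFAP20, and 49.2% and 41.4% in CFAP20-KO, so the groups did not overlap. The means were 29.6 ± 1.9% in tagged-CFAP20 and 45.3 ± 5.5% in CFAP20-KO (SD, n = 2 each), a difference of -15.6 points. No exact permutation test over 2 libraries against 2 can fall below p = 0.33, so none stands behind this difference. All other genes had 25.2% and 26.2% in tagged-CFAP20 and 24.8% and 24.6% in CFAP20-KO. The 6 genes thus exceeded the others by 3.09 and 4.81 points in tagged-CFAP20 and by 24.4 and 16.8 points in CFAP20-KO, a difference that was not tested. Such sums also depend on how the reads divide among the 6 genes, whose exon shares differ widely and which were picked on their share of the signal. As a mean of the 6 genes' own exon shares, the difference between the groups was -11.5 points rather than -15.6.

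Most of the gap in the summed reads was 3′ UTR. The 3′ UTR took 11.6 ± 2.3% of the reads on the 6 genes in tagged-CFAP20 and 25.6 ± 3.8% in CFAP20-KO (SD, n = 2 each), while coding exons took 17.3 ± 0.9% and 19.0 ± 2.7%. In all other genes the 3′ UTR took 5.89 ± 0.45% in tagged-CFAP20 and 9.60 ± 1.96% in CFAP20-KO, and coding exons 18.0 ± 0.2% and 13.6 ± 1.5%. Gene by gene, the exon share was lower in both tagged-CFAP20 libraries than in either CFAP20-KO library for LOX, FSTL1 and TGM2, an order that 13.7% of 1107 genes with reads in all 4 libraries shared. In CFAP20-KO replicate 2 the exon shares of LOX and FSTL1 rest on 7 read overlaps each. The exon share was higher for EXT1, an order shared by 35.5%, and overlapped for EFEMP1 and PRSS23.

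**Figure D3:**
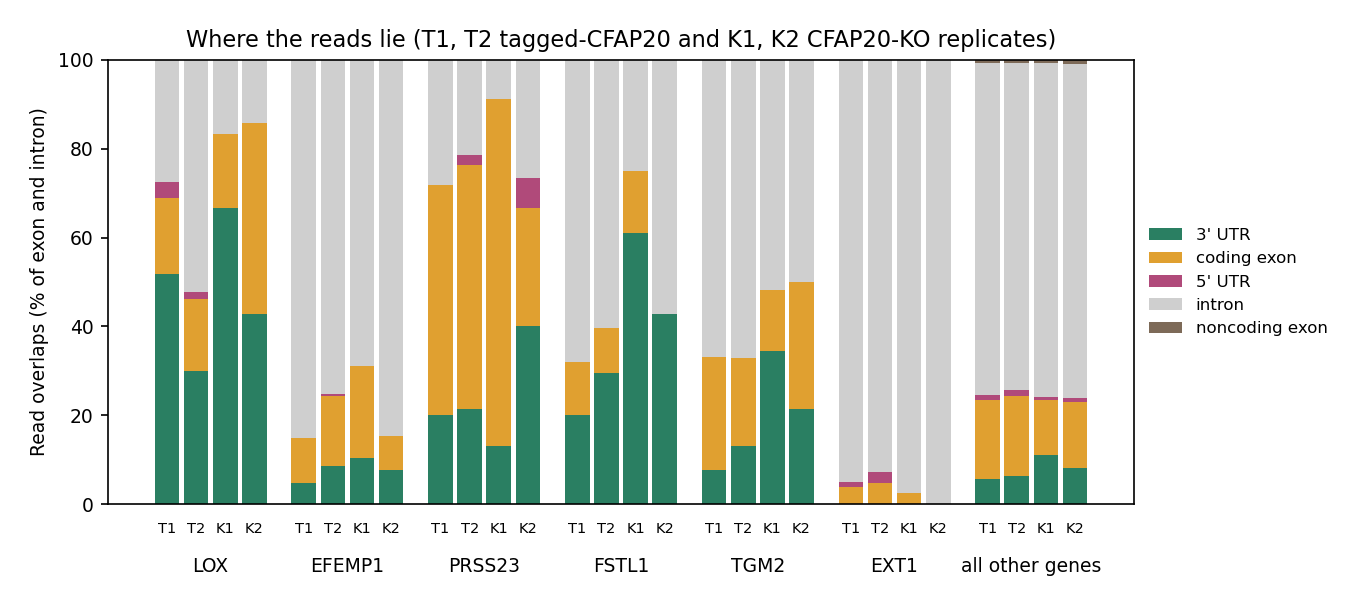
Read overlaps by position in the canonical transcript, as a percentage of those on exons and introns, for each gene and for all other genes; bars are libraries (T1, T2 tagged-CFAP20 and K1, K2 CFAP20-KO). The 3′ UTR part of FSTL1 and TGM2 is smaller in both tagged-CFAP20 bars, and EXT1 is nearly all intron in every bar.

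On the deposited scale, whose normalization is not stated, the picture differed by gene. EXT1 averaged 5337 ± 159 in tagged-CFAP20 and 3681 ± 276 in CFAP20-KO, and TGM2 5883 ± 969.4 in tagged-CFAP20 and 3142 ± 1039 in CFAP20-KO (SD, n = 2 each). LOX averaged 845.9 ± 124 in tagged-CFAP20 and 1716 ± 314 in CFAP20-KO. FSTL1 averaged 3006 ± 143 in tagged-CFAP20 and 2463 ± 742.3 in CFAP20-KO, with overlapping groups. TGM2 and EXT1 were higher in both tagged-CFAP20 libraries than in either CFAP20-KO library, an order that 50.7% of the 1119 genes with reads in all 4 libraries shared, and LOX, EFEMP1 and PRSS23 were lower, an order that 7.33% shared. The sum over the 6 genes was 19034 ± 475 in tagged-CFAP20 and 17078 ± 3258 in CFAP20-KO, a ratio of 1.11 that lay within the spread.

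In limma over 4461 genes, 1678 genes, 37.6%, were higher in tagged-CFAP20 and 3 genes, 0.0672%, lower at a Benjamini-Hochberg adjusted p under 0.05. Genes with reads in the 2 tagged-CFAP20 libraries alone were among those tested. When only the 1119 genes with reads in all 4 libraries were tested, 0 were called, though 262 had an unadjusted p under 0.05. The 37.6% thus depended on which genes were tested. With 2 libraries against 2, the 0 calls cannot show that such genes do not differ. Calls on the 6 genes are not given, since they were picked on the same signal. As a description, their log2 changes were 0.93 for TGM2, 0.54 for EXT1, 0.32 for FSTL1, -0.48 for EFEMP1, -0.64 for PRSS23 and -1.01 for LOX. The median change was 2.10 over all genes tested and 0.74 over the 1119 genes with reads in all 4 libraries, to which the 6 genes belong, so all but TGM2 lay below that second median. With every library scaled to the same sum of gene signal, the changes were -2.14 for LOX, -1.77 for PRSS23, -1.62 for EFEMP1, -0.82 for FSTL1, -0.60 for EXT1 and -0.20 for TGM2. There 1451 genes (32.5%) were called higher and 32 (0.717%) lower. FSTL1, TGM2 and EXT1 therefore lay on opposite sides of 0 on the 2 scales, and only LOX, PRSS23 and EFEMP1 were below 0 on both. With equal sums the median change was 1.57 over all genes tested and -0.38 over the 1119 genes with reads in all 4 libraries. All but TGM2 lay below that second median here too. The number of genes called fell to 0 in limma without either tagged-CFAP20 library, and was 3674 and 3226 without CFAP20-KO replicates 1 and 2.

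**Figure D4:**
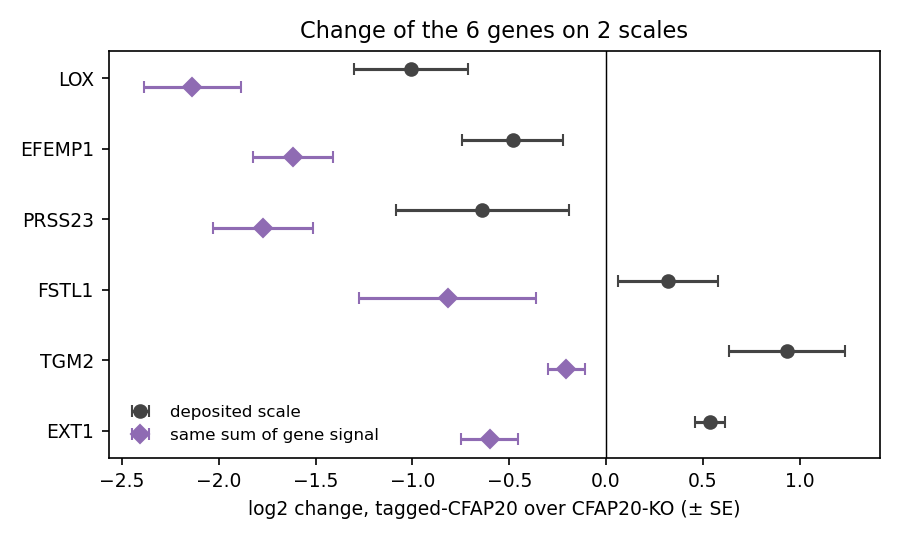
Log2 change of tagged-CFAP20 over CFAP20-KO for each gene with its SE from limma, on the deposited scale (grey circles) and with each library scaled to the same sum of gene signal (purple diamonds). LOX, EFEMP1 and PRSS23 lie below 0 on both scales, from -0.48 to -1.01 and from -1.62 to -2.14, and FSTL1, TGM2 and EXT1 change side.

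Other genes of the same matrix pathways gave mixed values. Of 147 genes in 7 lists (collagen crosslinking, elastic fibres, the SPARC and follistatin family, secreted proteases, heparan sulfate, transglutaminases, and proteoglycans and matricellular proteins), 50 were in the tables and 36 were tested. On the deposited scale 14 of the 36 were called higher and 0 lower, beside 37.6% and 0.0672% of all genes tested, with a median log2 change of 1.91, against 2.10 over all genes tested. Of these 14, 11 had no read in either CFAP20-KO library; the other 3 were LTBP4, HTRA1 and ADAMTS6, the last named after its values were seen. With equal sums of gene signal 8 of the 36 were called higher and 1, TGFBI, lower, beside 32.5% and 0.717% of all genes tested, with a median of 1.28 against 1.57 over all genes tested. Of the 14 list genes with reads in all 4 libraries, 5 had a lower share in both tagged-CFAP20 libraries than in either CFAP20-KO library and 3 a higher one, against 40.4% and 14.8% of all genes with reads in all 4 libraries.

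Relatives of each gene are given next. LOXL1, which like LOX crosslinks elastin, had 161 and 123 read overlaps in tagged-CFAP20 and 10 and 4 in CFAP20-KO, shares of 0.0975% and 0.0912% against 0.109% and 0.102%. SERPINH1, the collagen chaperone HSP47, had shares of 0.0339% and 0.0460% against 0.0875% and 0.128%. LTBP4, which binds latent TGF-beta in elastic fibres, lay the other way, with shares of 0.0769% and 0.0853% in tagged-CFAP20 against 0.0328% and 0.0256% in CFAP20-KO on 3 and 1 read overlaps. FBLN2, a fibulin like EFEMP1, had 0 and 1 read overlaps against 0 and 2, too few for a comparison.

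Around FSTL1 and PRSS23 the values were mixed as well. SPOCK1, a testican proteoglycan with SPARC-like domains, had shares of 0.113% and 0.121% in tagged-CFAP20 and 0.251% and 0.0768% in CFAP20-KO, so the groups overlapped. FST, the activin antagonist follistatin, had 20 and 15 read overlaps against 0 and 0. Its tagged-CFAP20 shares, 0.0121% and 0.0111%, lay under the share of 3 reads in either CFAP20-KO library (0.0328% and 0.0768%), which is too low for a comparison. HTRA1, a secreted serine protease like PRSS23, had shares of 0.136% and 0.127% in tagged-CFAP20 against 0.120% and 0.0768% in CFAP20-KO. The CFAP20-KO shares rest on 11 and 3 read overlaps. The gap to replicate 1 was smaller than the share of 1 read overlap there (0.0109%).

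Other transglutaminases gave few reads, while a partner of EXT1 gave many. TGM1 had 0 and 4 read overlaps and TGM6 1 and 2 in tagged-CFAP20, and both had 0 in CFAP20-KO. NDST1, which sulfates the heparan sulfate chains that EXT1 makes, had 205 and 175 against 6 and 4, shares of 0.124% and 0.130% against 0.0656% and 0.102%. That order is opposite to EXT1, but the gap to CFAP20-KO replicate 2 was smaller than the share of 1 read overlap there (0.0256%). FAM20B, the xylose kinase that acts on the linker of such chains, had 34 and 35 against 2 and 0. Its tagged-CFAP20 shares, 0.0206% and 0.0259%, also lay under the share of 3 reads in either CFAP20-KO library, too low for a comparison. Of the matricellular genes, CYR61 had shares of 0.248% and 0.234% in tagged-CFAP20 against 0.241% and 0.281% in CFAP20-KO, which overlapped, and TGFBI, a matrix adaptor protein, 0.0533% and 0.0615% against 0.109% and 0.128%.

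The gene nearest to each in its 4 shares was found among 1113 others with reads in every library, by Euclidean distance on log2 shares. EXT1 was nearest to PICALM (distance 0.28), TGM2 to ZMIZ1 (0.40), LOX to HNRNPF (0.51), PRSS23 to PDLIM5 (0.53), FSTL1 to HEG1 (0.59) and EFEMP1 to RRAS2 (0.79). HNRNPF had shares of 0.0412% and 0.0363% in tagged-CFAP20 and 0.142% and 0.179% in CFAP20-KO, close to those of LOX. None of these 6 neighbours was on a matrix list, and with 4 libraries the distance is a description of these libraries alone.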

How the data were processed

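The authors deposited 1 table of signal (coverage) per library, with 200-bp bins around each gene start on hg38. The submitters' processing notes name R 4.0.5, HOMER 4.8.2, Bowtie2 2.3.5 and UMI-tools 1.0.0 without their roles, and the normalization of the signal is not given in the sources used here. Bins from the gene start to the gene length, at most 100 kb, were used; bins upstream of the start and 1 further column of values per table were not. Dividing by each library's step gave whole read overlaps for 100.0% of values (tolerance 0.01). A gene with no row in 1 table counted as 0 there. Bins were centred on their labels, where overlap with exons was highest, and took the class with most bases in the GENCODE 44 canonical transcript. For genes with signal in 2 or more libraries, limma 3.58.1 with trend was run on log2(signal sum + 10); p-values were adjusted by Benjamini-Hochberg, and the fit was tested on simulated data. Intervals are exact Clopper-Pearson at 95% on read overlaps divided by the bins per read, and cover counting error only. The members and gene lists were chosen with earlier results of these data known. The text names the 6 genes, their nearest gene and the 2 genes of each list with most mean signal, except for a result that is not reported here. Same-numbered replicates did not deviate together (r = 0.005 over 4461 genes). With CFAP20-KO libraries this shallow, that cannot show whether the numbers pair them, and the main fit used no pairing.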

Additional observations from a re-analysis of the deposited data

How the results depend on the processing

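The count of 1681 genes called in limma was 1294 without trend and 1483 with equal sums of gene signal. With a pseudocount of 1 read in the shallowest library it was 1046. It was 0 with no filter and 0 among genes with reads in all 4 libraries (1714 and 262 genes had an unadjusted p under 0.05), and ran from 0 to 3674 without one library at a time; the cause was not tested. Without tagged-CFAP20 replicates 1 and 2, where it was 0, 24 and 41 genes had an unadjusted p under 0.05. With a replicate block it was 1874. With equal sums of gene signal the log2 changes of EXT1, FSTL1 and TGM2 turned to -0.60, -0.82 and -0.20. The exon share difference of the 6 genes was -15.7 points with any transcript's exons, -16.4 without each gene's strongest bin, -11.5 as a mean over genes, -18.9 without EXT1 (chosen after seeing the data), and -19.5 to -11.8 without one library at a time. Shares stayed lower in tagged-CFAP20 for all 6 genes in the alternatives run, with the exception of LOX over bins clear of SRFBP1 (log2 ratio 0.07, on 2 and 0 CFAP20-KO read overlaps, chosen after seeing the data), and otherwise with ratios between 0.190 and 0.318 for LOX, 0.236 and 0.491 for PRSS23 (0.491 over the whole downstream side), 0.384 and 0.843 for FSTL1 (0.843 without CFAP20-KO replicate 1), 0.271 and 0.388 for EFEMP1, 0.582 and 0.746 for EXT1 and 0.787 and 0.924 for TGM2. Shares over the whole deposited windows were not run. CFAP20-KO depth limits every ratio.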
